A study of Mus musculus with 8 samples.

Results

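Macrophages that lack NFAT5 were examined for the regions of open chromatin that appear or disappear after lipopolysaccharide (LPS), the outer membrane component of Gram-negative bacteria. ATAC-seq was used, an assay in which a transposase inserts sequencing adapters where DNA is not wrapped up. The cells were bone marrow-derived macrophages from NFAT5-deficient mice (Nfat5 KO, called KO here), grown for 7 days in medium with 25% conditioned medium of L929 cells, a fibroblast line that releases the macrophage growth factor M-CSF. The 2 KO untreated libraries came from such cells at rest, and the 2 KO LPS libraries from cells given 0.3 ng/ml LPS of E. coli for 2 h. Wild-type macrophages (WT), grown and treated in the same 2 ways with 2 libraries per group, served as an independent readout. The deleted part of Nfat5, any Cre driver, and the age, sex and strain of the mice were not found in the labels. The libraries are named as replicates, and the titles give the untreated and the LPS library of a replicate a shared number whose meaning is not stated. No label says that the replicates came from separate cultures or animals, so p-values measure only the spread between these libraries, which may be technical. Peak counts on the sex chromosomes nevertheless separated the replicate numbers in all 4 groups, with 1703 to 1763 peaks on X and 33 to 43 on Y in replicate 1 libraries and 1497 to 1601 on X and 59 to 96 on Y in replicate 2 libraries.

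Peaks of all 8 libraries were merged into 87260 regions on the 21 main chromosomes. A region was gained when both KO LPS libraries and neither KO untreated library called a peak there, and lost in the reverse case. By this rule 2234 regions (2.56% of all) were gained and 3548 (4.07%) were lost. Pairs of KO libraries that mix the treatments also called regions that the other KO libraries did not. The pair of replicate 1 libraries gave 1067 such regions and the pair of replicate 2 libraries 1297. Untreated library 2 with LPS library 1 gave 1039, and untreated library 1 with LPS library 2 gave 683. How many gained or lost regions reflect such spread between libraries was not tested. A further 40227 regions were called in all 4 KO libraries, and in these the width of the peak was compared. The files give peak positions only, so depth is unknown, and a region that was not called was not shown to be closed. In such bulk samples, fewer cells with an open region and less opening per cell cannot be told apart.

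LPS binds the receptor complex of TLR4, MD-2 and CD14 and starts signalling through adaptor proteins to the transcription factors NF-kB, AP-1 and the interferon regulatory factors. In macrophages, early response genes lie largely in chromatin that is open at rest, whereas later genes often need new enhancers to open. NFAT5 shares its DNA-binding domain with the NF-kB family, is best known for the response to high salt, and takes part in the induction of a subset of LPS genes in macrophages.

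The label of the cells was checked on annotated transcript starts. Of 15 macrophage identity genes with an entry in the RefSeq promoter table, 11 had a start called in all 4 KO libraries, among them Cebpa, Cebpb, Cd68, Mertk, Lyz2 and Runx1, against 35.4% of all genes of that table. The starts of Itgam and Axl were called in no KO library. The same count was 1 of 10 for T cell markers (Cd5), 1 of 9 for B cell markers (Blnk), 1 of 9 for erythroid markers (Tfrc) and 2 of 12 for neutrophil markers (S100a8 and Csf3r). It was 3 of 11 for dendritic cell markers (Itgax, Bst2 and Dpp4), 0 of 7 for fibroblast or stroma markers and 0 of 10 for mast cell or basophil markers. The 4 KO lists held 54027 to 59811 peaks, with fewer and narrower peaks after LPS (54911 and 54027 peaks with median widths of 410 and 403 bases) than before (56346 and 59811 peaks, 443 and 422 bases).

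Only 42 of the gained regions held a transcript start of the RefSeq promoter table, which lacks some genes. The sequences before 7 of these starts are printed as examples, chosen after their values were seen. They are not representative, since capitals occur in 5 of the 7 but in only 22 of all 48 starts in gained regions, and 19 of the 48 hold none of the motifs searched. They belong to Cxcl1, a chemokine that attracts neutrophils, Tnip1, an inhibitor of NF-kB signalling, Tnfrsf9, a costimulatory receptor, Nfkb2, an NF-kB subunit, Isg15, an interferon-induced ubiquitin-like protein, Acod1, the enzyme that makes itaconate, and Slpi, a protease inhibitor. Each line gives the 250 bases before the start from RefSeq (GRCm38.p6), read 5′ to 3′ on the strand of the gene. Capitals mark matches to the NF-kB letters GGGANTTTC or GGGNNTTCC, the AP-1 letters TGANTCA or the interferon response letters GAAANNGAA, on either strand. The windows are chr5:90890995-90891244 (plus strand), chr11:54962941-54963190 (minus), chr4:150927749-150927998 (plus), chr19:46305445-46305694 (plus), chr4:156200819-156201068 (minus), chr14:103046762-103047011 (plus) and chr2:164356508-164356757 (minus).
Cxcl1: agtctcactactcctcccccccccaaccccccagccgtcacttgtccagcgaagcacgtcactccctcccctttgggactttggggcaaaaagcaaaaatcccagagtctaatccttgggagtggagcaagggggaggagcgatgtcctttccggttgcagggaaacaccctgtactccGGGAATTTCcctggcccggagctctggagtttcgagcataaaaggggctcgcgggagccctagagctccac
Tnip1: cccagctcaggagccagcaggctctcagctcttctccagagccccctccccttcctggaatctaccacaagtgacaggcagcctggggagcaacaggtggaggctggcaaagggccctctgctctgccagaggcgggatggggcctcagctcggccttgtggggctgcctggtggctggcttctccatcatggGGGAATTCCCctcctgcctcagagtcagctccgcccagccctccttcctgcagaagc
Tnfrsf9: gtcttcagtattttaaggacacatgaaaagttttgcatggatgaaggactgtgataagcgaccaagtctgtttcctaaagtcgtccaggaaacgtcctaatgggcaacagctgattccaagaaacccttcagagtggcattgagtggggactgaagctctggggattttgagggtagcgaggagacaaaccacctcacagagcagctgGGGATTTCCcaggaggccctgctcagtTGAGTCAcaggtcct
Nfkb2: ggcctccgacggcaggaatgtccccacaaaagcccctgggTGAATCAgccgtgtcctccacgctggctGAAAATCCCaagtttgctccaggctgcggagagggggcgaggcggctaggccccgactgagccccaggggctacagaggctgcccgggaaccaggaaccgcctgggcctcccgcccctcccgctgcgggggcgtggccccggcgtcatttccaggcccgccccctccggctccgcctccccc
Isg15: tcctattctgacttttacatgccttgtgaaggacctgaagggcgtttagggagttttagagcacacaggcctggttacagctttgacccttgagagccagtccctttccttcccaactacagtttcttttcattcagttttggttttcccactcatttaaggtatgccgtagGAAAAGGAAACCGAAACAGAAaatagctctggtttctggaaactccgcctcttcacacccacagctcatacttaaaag
Acod1: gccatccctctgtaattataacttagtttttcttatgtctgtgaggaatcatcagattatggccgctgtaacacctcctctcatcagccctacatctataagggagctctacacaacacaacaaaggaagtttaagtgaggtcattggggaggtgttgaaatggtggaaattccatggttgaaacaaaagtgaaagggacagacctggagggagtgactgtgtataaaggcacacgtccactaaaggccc
Slpi: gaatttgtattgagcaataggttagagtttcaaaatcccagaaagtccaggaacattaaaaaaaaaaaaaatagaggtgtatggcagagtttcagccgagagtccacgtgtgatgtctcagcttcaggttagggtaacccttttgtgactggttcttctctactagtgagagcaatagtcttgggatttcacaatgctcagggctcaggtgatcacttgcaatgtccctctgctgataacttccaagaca

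The capitals in Cxcl1 mark an NF-kB match at positions -71 to -63 from the start. Tnip1 holds 2 overlapping NF-kB matches (-57 to -49 and -56 to -48), and Tnfrsf9 holds an NF-kB match (-42 to -34) and an AP-1 match (-15 to -9). In Nfkb2 the AP-1 match lies at -210 to -204 and the NF-kB match at -182 to -174. Isg15 carries 3 overlapping interferon response matches (-78 to -70, -72 to -64 and -66 to -58). No motif was found in Slpi, and no capitals occur in Acod1, which held only the short core of the NFAT5 site, TGGAAA on either strand (-86 to -81). That core also occurs in Isg15 (-42 to -37) and Nfkb2 (-35 to -30).

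Matches to the NF-kB letters were more common in promoters inside gained regions than in promoters at large. Counted over whole 300-base windows, which run 250 bases before to 50 after a start, 14 of 48 starts in gained regions (29.2%) held one, in 11 different regions. The share was 4.73% (7 of 148 starts) in lost regions, 8.60% in regions called in all 4 KO libraries and 6.85% over all 32817 promoter windows. AP-1 letters occurred in 14.6% of the windows in gained regions (7 of 48) and 7.81% of all windows. The interferon response letters were present in 12.5% (6 of 48) and 8.55%, the NFAT5 core in 27.1% (13 of 48) and 21.4%, and the PU.1 letters GAGGAAGT in 6.25% (3 of 48) and 3.20%. The cAMP response letters TGACGTCA were in none of the 48 windows and in 1.79% of all. These are descriptions of letters, with no test, and starts that share a region are not independent. Matches of different motifs were counted separately and may overlap.

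At the promoters printed above, the peaks of the KO LPS libraries were of moderate width. At Cxcl1 (chromosome 5, 90890595 to 90891673) KO LPS peaks spanned 457 and 625 bases, with none in KO untreated. WT libraries gave 425 and 0 bases untreated and 631 and 1017 with LPS, so WT untreated library 1 already called it. The Tnip1 region (chromosome 11, 54962891 to 54963382) had 372 and 438 bases in KO LPS and 434 and 482 in WT LPS, with no peak in any untreated library. Tnfrsf9 (chromosome 4, 150927555 to 150928068) likewise had 397 and 175 bases in KO LPS, 514 and 368 in WT LPS, and none untreated. At Acod1 (chromosome 14, 103046622 to 103047398) the KO LPS peaks spanned 591 and 582 bases, and WT libraries gave 0 and 221 untreated and 642 and 777 with LPS. The Isg15 region (chromosome 4, 156200648 to 156201166) differed from these, with 246 and 244 bases in KO LPS but peaks in all 4 WT libraries, 251 and 199 untreated and 519 and 478 with LPS. Nfkb2 (chromosome 19, 46305283 to 46305782, a start shared with 4833438C02Rik) gave 277 and 193 bases in KO LPS, and 205, 0, 471 and 353 in the WT libraries. Other gained regions over a start lay at Olr1, a receptor for oxidised lipoprotein (383 and 632 bases), Nox1, an NADPH oxidase (368 and 440), C3, the central complement component (321 and 312), and Slpi (183 and 490).

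Most gained regions lay far from the transcript starts in the promoter table. Of the 2159 gained regions on chromosomes covered by the promoter table, which holds no entry for chromosome 18, 1.95% held a transcript start, against 3.92% of lost regions, 21.5% of regions called in all 4 KO libraries and 11.4% of all regions. Regions over 10 kb from the nearest start made up 72.0% of gained, 67.6% of lost, 56.3% of all-4 and 64.2% of all regions. The shares of all regions include the all-4 regions. Regions neither gained, lost nor called in all 4, of which 1045 held a start, were not set apart. Whether distance from starts is particular to gained regions was thus not tested. The median distance to a start was 25.4 kb for gained and 19.9 kb for lost regions, 14.0 kb for regions called in all 4 and 19.2 kb over all regions, so the lost regions lay close to the value of all regions. The promoter table also lacks some genes on the covered chromosomes. A region over an end of Tlr4 was placed 423 kb from the nearest start, of Astn2. The gained region over an end of Nos2 was placed 64.0 kb from a start of Lgals9. Shares with a start are thus lower limits and distances upper limits, in all these groups. Gained regions lay inside a protein-coding gene in 50.6% of cases, lost regions in 51.9%, all-4 regions in 43.8% and all regions in 47.1%.

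**Figure D1:**
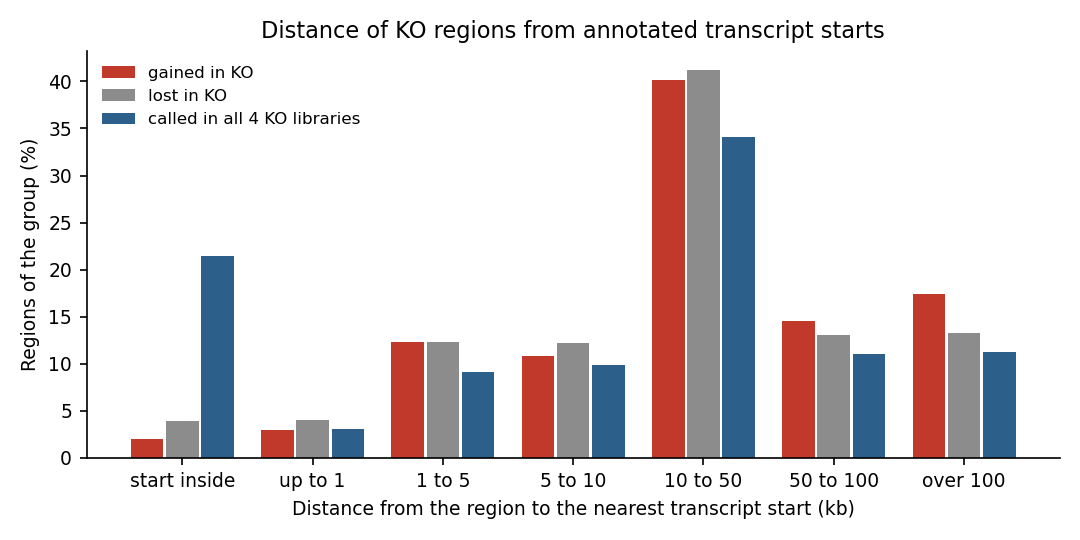
Share of gained, lost and all-4 KO regions (y axis, percent of the group) in classes of distance to the nearest transcript start of the promoter table (x axis, kb). Regions with a start inside make up 1.95% of gained, 3.92% of lost and 21.5% of all-4 regions, and the class from 10 to 50 kb is the largest in each group.

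Members of both kinds were mostly narrow. The narrower of the 2 peaks in a gained region had a median of 231 bases (quartiles 191 and 310, up to 1588), and only 7 gained regions exceeded 1000 bases in both KO LPS libraries. For lost regions the median was 218 bases (up to 1179), with 3 regions over 1000 bases in both KO untreated libraries. The consensus regions had a median width of 421 bases when gained, 361 when lost and 711 when called in all 4. Another gained region lay within 10 kb of 8.82% of gained regions, and another lost region within 10 kb of 6.54% of lost ones. No such share was counted for other regions, and whether members cluster was not tested. Among chromosomes other than Y, the gained share ran from 1.89% on chromosome 8, which carries Nfat5, to 3.69% on chromosome 16.

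The widest gained regions differed in how WT libraries called them. A region 24.8 kb from Cxcl15, a neutrophil-attracting chemokine (chromosome 5, 90827876 to 90829587), had 1626 and 1588 bases in KO LPS. WT libraries gave 0 and 1489 bases there untreated and 1031 and 1314 with LPS. Beside Lcp1, which encodes an actin-bundling protein of leukocytes (chromosome 14, 75231205 to 75233606), the KO LPS peaks spanned 2045 and 1512 bases. WT libraries gave 756, 0, 2365 and 1166, again with 1 untreated library calling it. Clec4e, which encodes the receptor Mincle, had a region over its gene end (chromosome 6, 123279795 to 123281794) with 1310 and 1206 bases in KO LPS and 1070 and 1924 in WT LPS, and no peak untreated in either genotype. Inside Map2k6, a kinase that activates the stress kinase Mapk14 (chromosome 11, 110429711 to 110430856), the widths were 1134 and 1146 in KO LPS and 647 and 702 in WT LPS, with none untreated. Zc3h12c, of the regnase family of RNA-cutting proteins, had 1756 and 859 bases in KO LPS and 1830 and 1114 in WT LPS (chromosome 9, 52106588 to 52108618), and none untreated. The 12 widest also included regions at Ptprt, Fgd2, Enah, Btg1, Slc6a14, Slco3a1 and Spidr. Regions at Enah and Btg1 were called in all 4 WT libraries, with 742 and 558 bases untreated at Enah and 564 and 805 at Btg1.

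The widest lost regions were likewise called in different ways in WT. The region 75.4 kb from Ppp2r5c, a phosphatase subunit (chromosome 12, 110369169 to 110371717), had 1179 and 1920 bases in KO untreated and 995 and 1724 in WT untreated, with no peak after LPS. Inside Fbxw7, a subunit of a ubiquitin ligase (chromosome 3, 84842747 to 84843883), the untreated widths were 817 and 1031 in KO and 433 and 979 in WT, again with none after LPS. Lost regions at Asmt, Ccdc152, Tnrc6a, Cdkal1, Atp23, Trim47, Sdk2, Rnf144b, Tecta and Asb10 were the others of the 12 widest. At Atp23 and Asmt both WT LPS libraries still called the region, with 791 and 771 bases at Atp23 and 845 and 735 at Asmt.

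The share of gained regions was higher at genes known to respond to LPS than over all genes. Over the 78497 regions with a protein-coding gene within 100 kb, 2.50% were gained and 4.11% lost, and 9.63% of the 16627 genes with a region had at least 1 gained and 16.0% at least 1 lost region. Early LPS response genes had 17 gained of 284 regions (5.99%) and 12 lost (4.23%), with 13 of 40 genes gaining and 12 losing a region. Late LPS response genes had 12 gained of 162 regions (7.41%) and 1 lost (0.617%), with 9 of 23 genes gaining a region and only Lif losing one. Genes of both lists held more regions each than genes at large (284 for 40 and 162 for 23, against 78497 for 16627), which raises their gene counts. Fibroblast markers (5 of 51 regions gained) and T cell markers (3 of 40) had a higher gained share than the late list. Cell cycle genes (5 of 74) had a higher one than the early list. Other lists lay below all genes, such as housekeeping genes (1 of 61) and glycolysis and hypoxia genes (1 of 127). A raised share is thus not particular to LPS response genes. These counts are descriptions without a test, since the lists were chosen with earlier results known. They depend on how regions are assigned to genes: with only regions that overlap the gene body, 6 of 77 regions of the early list (7.79%) and 6 of 53 of the late list (11.3%) were gained, against 2.32% of all such regions.

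Early response genes with wide gained regions included Nfkbiz, a nuclear inhibitor-like regulator of NF-kB. Its region 0.609 kb outside the gene (chromosome 16, 55809226 to 55810766) had 1541 and 769 bases in KO LPS, 1288 and 1338 in WT LPS and none untreated. A second one, 53.7 kb away, had 349 and 333 bases in KO LPS and 248 and 311 in WT LPS. Tnf, the cytokine tumour necrosis factor, gained a region over its gene end (chromosome 17, 35198165 to 35199637), with 940 and 622 bases in KO LPS, 958 and 419 in WT LPS and none untreated. In the same gene a neighbouring region (35200384 to 35201213) was lost, with 313 and 685 bases in KO untreated. The WT libraries called that one in every case, with 334 and 652 bases untreated and 172 and 415 after LPS. Tnfaip3, an inhibitor of NF-kB, gained 3 regions between 30.6 and 62.3 kb from the gene, the widest with 748 and 536 bases in KO LPS and 822 and 855 in WT LPS (chromosome 10, 19077699 to 19078553). It lost a region 59.1 kb away on the other side, which WT also lost. Traf1, an adaptor of TNF receptors, gained 2 regions inside the gene, with 426 and 423 bases in the first and 638 and 178 in the second. Both were also gained in WT.

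Other early genes gained 1 region each. Values in KO LPS were 519 and 406 bases at Pim1, a survival kinase, 386 and 326 at Cd83, an activation marker, 366 and 320 at Dusp2, a MAP kinase phosphatase, 316 and 323 at Bcl3, a nuclear NF-kB cofactor, and 271 and 353 at Icam1, an adhesion molecule. Of the 17 gained regions of the early list, 14 were gained in WT too. The early genes that lost regions included Ccl4, a chemokine (400 and 437 bases in KO untreated), Dusp1, a MAP kinase phosphatase (477 and 281), Cxcl2, a chemokine (520 and 219), and Socs3, a feedback inhibitor of cytokine signalling (289 and 265). Of these 12 lost regions, 5 were lost in WT.

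Late response genes were led by the IL-12 genes and by enzymes. Il12b, the shared subunit of IL-12 and IL-23, gained 3 regions, at 26.6, 17.5 and 68.2 kb from the gene. The first (chromosome 11, 44372400 to 44373431) had 749 and 822 bases in KO LPS and 416 and 348 in WT LPS, with none untreated. The second had 371 and 309 bases in KO LPS and 342 and 284 in WT LPS, with none untreated. The third had 278 and 299 in KO LPS, and WT untreated library 1 called it as well (243 bases). Il12a, the other IL-12 subunit, gained a region inside the gene (chromosome 3, 68693084 to 68694038) with 625 and 431 bases in KO LPS, 954 and 507 in WT LPS and none untreated. Nos2, the inducible nitric oxide synthase, gained a region 33.3 kb away (574 and 490 bases) and 1 over its gene end (301 and 317). WT untreated library 2 called both, with 171 and 169 bases. Ptges, which makes prostaglandin E, gained a region inside the gene with 459 and 467 bases in KO LPS and 497 and 420 in WT LPS. Marco, a scavenger receptor, Edn1, a vasoactive peptide, Cp, the copper protein ceruloplasmin, and Serpinb2, a protease inhibitor, each gained 1 narrower region. In all, 5 of the 12 gained regions of this list were gained in WT by the same rule.

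**Figure D2:**
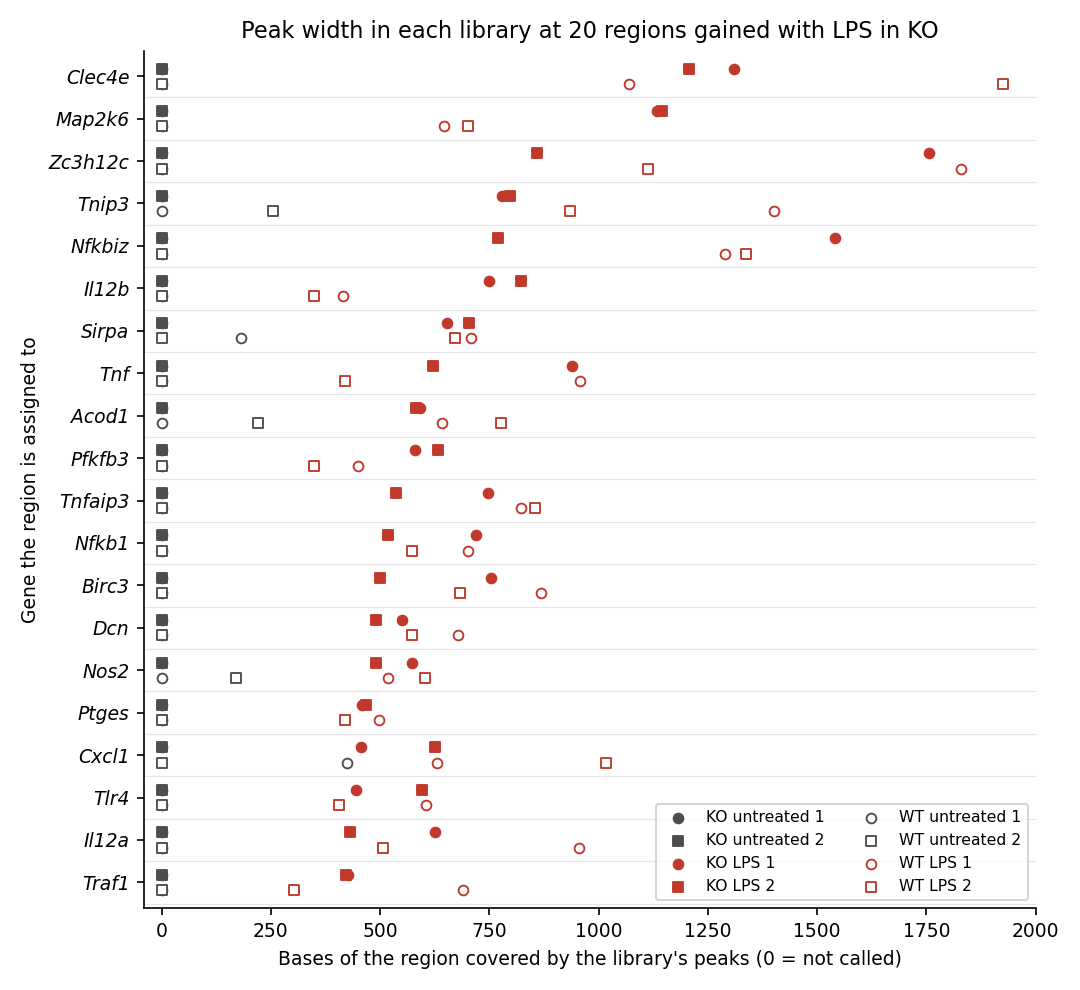
Bases covered by each library's peaks (x axis, 0 where no peak was called) in the widest gained region of 20 listed genes (y axis), with KO libraries as filled and WT libraries as open symbols. Both KO untreated libraries are at 0 by the rule, and WT LPS libraries called the region at each of these genes, while a WT untreated library did so at Tnip3, Sirpa, Acod1, Nos2 and Cxcl1.

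Genes of the NF-kB system also gained regions. Of 139 regions at NF-kB subunits and inhibitors, 13 were gained (9.35%) and 3 lost (2.16%). A region was gained at 8 of 16 genes, against 9.63% of all genes with a region. These genes also held more regions each than genes at large (139 for 16, against 78497 for 16627). Over all regions with a gene, 2.50% were gained and 4.11% lost. Nfkb1, an NF-kB subunit, gained 2 regions inside the gene, with 720 and 519 bases in KO LPS in the first and 179 and 393 in the second. Birc3, a ubiquitin ligase of TNF receptor signalling, gained 1 inside the gene (754 and 500 bases) and 1 outside (430 and 194). It also lost a region (383 and 319 bases in KO untreated) that no WT library called. Rel, another subunit, gained a region inside the gene with 294 and 229 bases. Of the 13 gained regions, 11 were gained in WT.

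TLR4 signalling genes gained 12 of 227 regions (5.29%) and lost 7 (3.08%). Tlr4 itself gained a region inside the gene (chromosome 4, 66837573 to 66838259) with 444 and 597 bases in KO LPS, 605 and 406 in WT LPS and none untreated. Tnip3, a binding partner of the Tnfaip3 protein, gained a region 0.211 kb outside the gene with 779 and 798 bases in KO LPS, and WT libraries gave 0, 256, 1401 and 935. Irak2, a kinase of the pathway, gained 2 regions inside the gene, with 325 and 297 bases in one and 270 and 406 in the other. Ikbke, a kinase of interferon induction, gained a region inside the gene (199 and 404 bases) and lost the region over its transcript start (290 and 480 bases in KO untreated). WT LPS libraries called neither of these, and WT untreated library 1 called the second.

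Interferon response genes gained 6 of 128 regions (4.69%) and lost 3 (2.34%). Ccl5, a T cell-attracting chemokine, gained a region 3.94 kb away with 607 and 419 bases in KO LPS, but all 4 WT libraries called it (221 and 212 untreated, 720 and 702 with LPS). Usp18, which limits interferon signalling, gained a region with 294 and 290 bases, and Cmpk2, an interferon-induced kinase, 1 with 261 and 234. The lost regions lay at Ifi47, an interferon-induced GTPase, and at Ifih1 and Ddx58, sensors of viral RNA.

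Of the list of LPS genes linked to NFAT5, 5 of 11 genes (45.5%) gained a region in the cells without NFAT5, against 9.63% of all genes with a region. Genes of the list also held more regions each than genes at large (79 for 11 genes, against 78497 for 16627). The 5 genes were Nos2, Tnf, Il12b, Traf1 and Ciita. The list held 9 gained of 79 regions (11.4%) and 2 lost (2.53%, at Tnf and Il1a), against 2.50% and 4.11% over all regions with a gene. All of the 5 genes but Ciita are also in the early or late list, so the counts overlap. Ciita, the master regulator of MHC class II genes, gained a region inside the gene (chromosome 16, 10498184 to 10498544) with 279 and 263 bases in KO LPS, 348 and 306 in WT LPS and none untreated. Of the 9 regions, 6 were gained in WT. Il6, Il1b, Ptgs2, Ccl2 and Csf2 of this list gained and lost no region in KO. Neither did Nfat5, nor Cxcl10 of the interferon list. WT gained regions at Il6 (409 and 304 bases in WT LPS) and Il1b (224 and 246, and 210 and 179), which no KO library called. It also gained regions at Ptgs2 (351 and 409), called by KO LPS library 1, and Ccl2 (483 and 385), called by KO untreated library 2 and both KO LPS libraries. WT lost another region at Ptgs2. These differences between genotypes were not tested. Osmotic stress genes, the other group tied to NFAT5, gained 3 of 93 regions and lost 3 (3.23% each). The gained ones lay at Slc38a2, an amino acid carrier (416 and 415 bases), Aqp9, a water channel (317 and 397), and Hspa1b, a heat shock protein (167 and 313).

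Macrophage identity genes had a higher share of lost regions than of gained ones, as all regions did. Of 311 regions 16 were lost (5.14%) and 11 gained (3.54%), against 4.11% and 2.50% over all regions with a gene. A region was lost at 12 of 24 genes, against 16.0% of all genes with a region. These genes also held more regions each than genes at large (311 for 24 genes, against 78497 for 16627), which raises the share of genes with a loss. Cebpb, a lineage transcription factor, lost a region 8.03 kb away with 497 and 514 bases in KO untreated, although WT LPS library 1 still called it (179 bases). Spi1, which encodes the lineage factor PU.1, lost a region inside the gene with 468 and 475 bases, and WT LPS library 2 gave 165 bases there. Axl and Mertk, receptors for apoptotic cells, each lost a region inside the gene (437 and 439 bases, and 438 and 381). Itgam, an integrin chain, and Irf8, a lineage factor, lost 2 regions each, and Runx1, a further lineage factor, lost 3. Both regions at Itgam and both at Irf8 were lost in WT.

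Adgre1, which encodes the macrophage surface protein F4/80, stood at the other end of this list with 4 gained regions, all inside the gene. Their KO LPS widths were 627 and 274, 226 and 378, 215 and 217, and 297 and 205 bases. No WT untreated library called any of them. In WT LPS, library 2 called the first (446 bases) and the fourth (307), library 1 called the second (195), and neither called the third.

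The other lists lay on both sides of the background. Genes of the AP-1 and ATF family had 1 gained of 126 regions (0.794%) and 3 lost. Glycolysis and hypoxia genes had 1 of 127 (0.787%), at Pfkfb3, which drives glycolysis (579 and 632 bases). Cholesterol and lipid handling genes gained 2 of 139 regions (1.44%) and lost 6 (4.32%). MAP kinases and their phosphatases gained 4 of 201 (1.99%) and lost 8 (3.98%), and chemokine and homing receptors gained 3 of 124 (2.42%) and lost 6 (4.84%), of which 3 lay at Ccr2, the receptor for Ccl2. Genes of cytokine mRNA decay gained 6 and lost 6 of 111 regions (5.41% each). Alternative activation genes gained 3 and lost 5 of 107, MHC class II genes gained 2 and lost 2 of 43, cell cycle genes gained 5 and lost 5 of 74 (6.76% each) and housekeeping genes gained 1 and lost 4 of 61. Among markers of other cell types, fibroblast genes gained 5 of 51 regions (9.80%) and dendritic cell genes 4 of 90 (4.44%). T cell genes gained 3 of 40, B cell genes 2 of 38, mast cell genes 1 of 18, and neutrophil and erythroid genes none of 26 and 12. The fibroblast regions lay at Dcn, Fap, Pdgfrb and Prrx1, and the part that other cells had in them was not tested. None of the 7 fibroblast marker starts in the promoter table, that of Prrx1 among them, was called in any KO library. The table has no entry for Dcn, Fap or Pdgfrb, so this count says nothing of their starts.

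**Figure D3:**
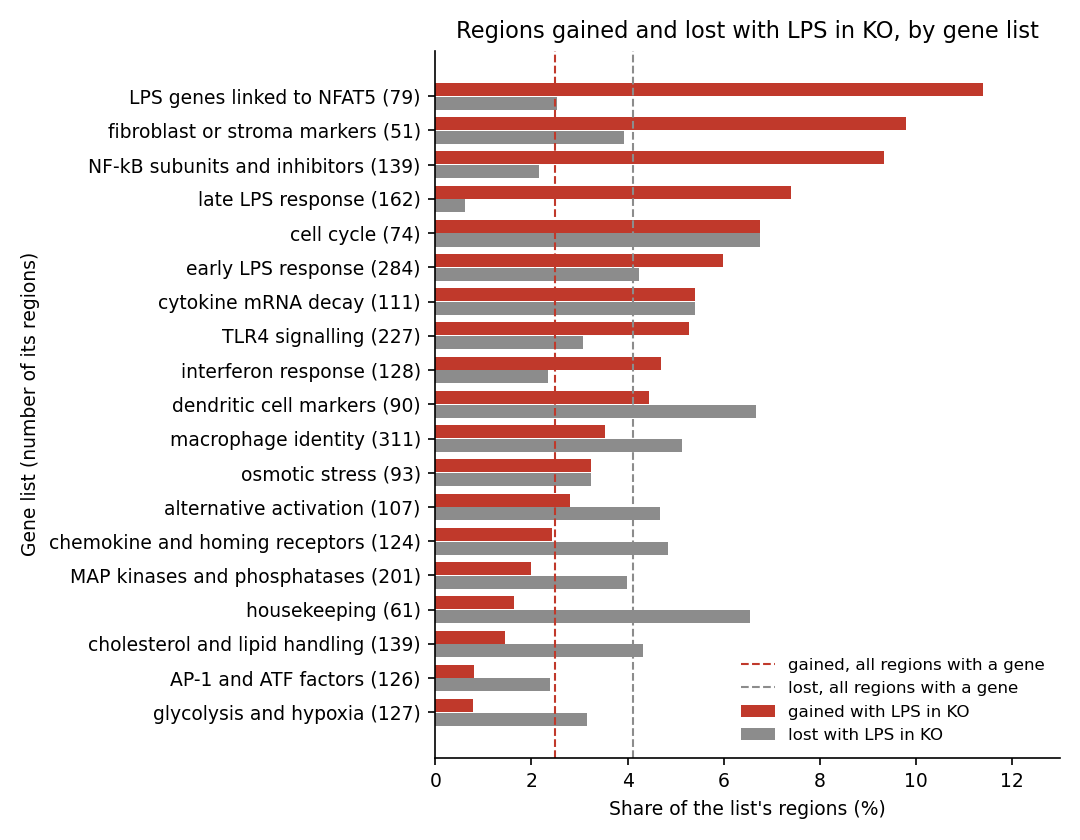
Share of the regions of each gene list (x axis, percent) that were gained or lost with LPS in KO, for the 19 lists with at least 50 regions, with dashed lines at 2.50% gained and 4.11% lost over all regions with a gene. The late LPS response list stands at 7.41% gained and 0.617% lost, and the macrophage identity list at 3.54% and 5.14%.

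Single genes with the most members were mainly long genes with many regions. Cers6, a ceramide synthase, gained 6 of 43 regions and Zbtb20, a transcriptional repressor, 6 of 45. Slco3a1, Ralgapa2, Macrod2 and Lpp gained 5 each, of 32, 40, 52 and 64 regions. Rala, a small GTPase, gained 4 of only 10 regions, 3 of which were gained in WT, and Bmt2 gained 4 of 16. Itgb5, an integrin chain, and Plxnc1, a semaphorin receptor, lost 5 of 14 and 5 of 18 regions and gained none. Zfp704 and Nav2 lost 5 of 33 and 5 of 44, and Epb41l1, Spire1, Tpcn2 and Cask lost 4 each.

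WT libraries took no part in choosing the members, and their calls followed the same direction. The WT LPS libraries called 80.1% and 74.2% of the KO gained regions, and the WT untreated libraries 23.2% and 25.0%. The means were 77.1 ± 4.18% and 24.1 ± 1.30% (SD, n = 2), without overlap of the groups (two-sided exact permutation p = 0.33, the smallest that 2 against 2 allows). Of the KO lost regions, WT untreated libraries called 67.8% and 62.7% and WT LPS libraries 29.7% and 28.1%. Regions called in 1 KO untreated and 1 KO LPS library gave 52.2% and 52.1% in WT untreated and 42.5% and 41.7% in WT LPS. At all 87260 regions these shares were 67.7% and 66.7% untreated and 64.4% and 62.1% with LPS.

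**Figure D4:**
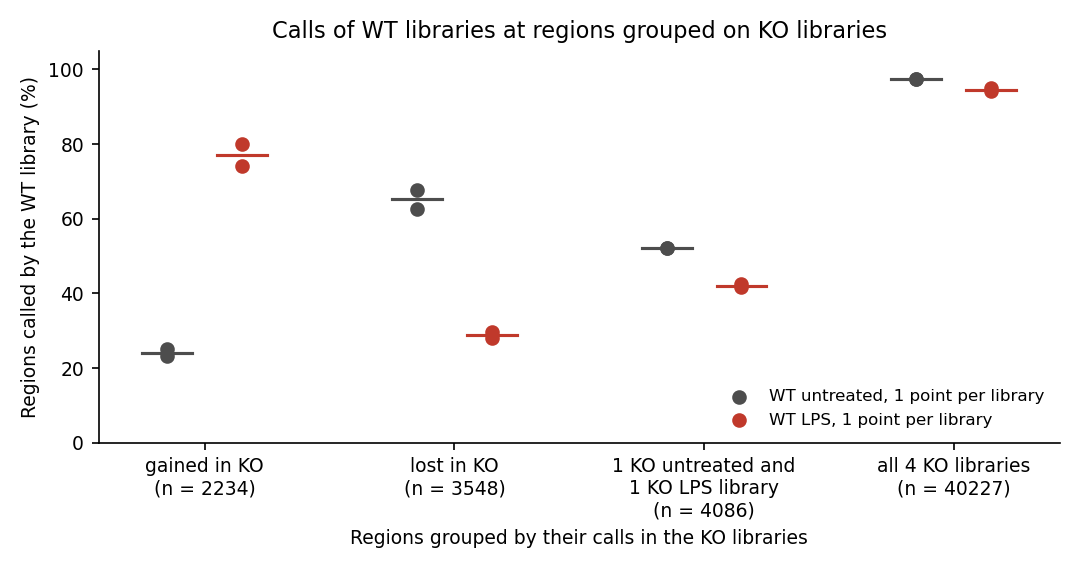
Percent of regions called by each WT library (y axis, 1 point per library, line at the mean of 2) for regions grouped by their calls in KO libraries (x axis). WT LPS libraries lie above WT untreated ones at KO gained regions (80.1% and 74.2% against 23.2% and 25.0%) and below them at KO lost regions.

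By the strict rule applied in WT, 959 of the 2234 KO gained regions (42.9%) were also gained there, out of 3454 gained in WT (3.96% of all regions). Of the 3548 KO lost regions, 810 (22.8%) were lost in WT, out of 4414 (5.06%). A looser comparison of the number of calling libraries put 70.9% of KO gained regions on the LPS side in WT and 6.80% on the untreated side, with 22.3% even. For KO lost regions 57.3% were on the untreated side and 6.62% on the LPS side. All 4 WT libraries called 196 of the gained (8.77%) and 453 of the lost regions (12.8%). The side counts and these counts were made for members only. How far they depart from the split over all regions was not tested. In the reverse readout, KO LPS libraries called 55.8% and 48.9% of the regions gained in WT, and KO untreated libraries 12.1% and 14.8%. Of the regions lost in WT, KO untreated libraries called 63.4% and 70.5% and KO LPS libraries 34.0% and 35.5%.

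No WT library called 209 of the gained regions (9.36%) and 563 of the lost ones (15.9%). These shares were counted for members only, and whether they differ from the share over all regions was not tested. The members that no WT library called were narrower than the members at large. Their median was 206 against 231 bases for the narrower gained peak and 202 against 218 for the lost one. The widest of them lay inside Specc1 (chromosome 11, 62074698 to 62075364, 641 and 667 bases in KO untreated) and St3gal1, a sialyltransferase (chromosome 15, 67172784 to 67173314, 521 and 531), both lost. The widest gained one lay inside Robo2, an axon guidance receptor (chromosome 16, 74174434 to 74175106, 673 and 516 in KO LPS). These 3 were chosen after their values were seen, and whether such regions are particular to KO was not tested.

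The number of lost regions exceeded the number of gained ones, but this order depended on the length of the lists. When each list was limited to its widest 54027 peaks, 2741 regions were gained and 2540 lost. With the widest 27013 peaks, 1574 were gained and 1384 lost. Leaving out a library loosens the rule, and gave 3326 gained and 9248 lost regions without KO untreated library 1, 3709 and 7023 without library 2, 5314 and 6300 without KO LPS library 1, and 6088 and 6178 without library 2.

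In the 40227 regions called in all 4 KO libraries, no single region differed in width past the threshold. The fit with limma, adjusted after Benjamini and Hochberg, called 0 regions wider and 0 narrower at an adjusted p under 0.05 (0% of those tested). The smallest adjusted p was 0.263, and 1024 wider and 3871 narrower regions had an unadjusted p under 0.05. Peaks were narrower after LPS on the whole, with a median log2 width difference of -0.118. Each LPS library against each untreated one gave medians of -0.0943, -0.0923, -0.114 and -0.114. The same median between the 2 replicates of a group was 0 untreated and -0.0136 with LPS, closer to 0 than any of these. Single regions varied more, with a median absolute log2 difference between replicates of 0.168 untreated and 0.196 with LPS.

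**Figure D5:**
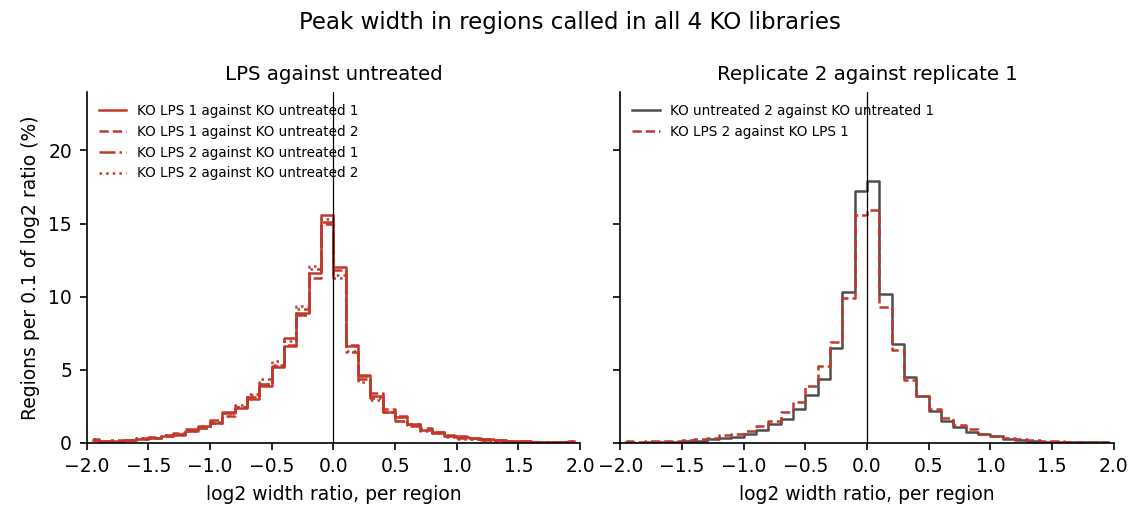
Distribution over 40227 regions of the log2 ratio of peak widths (x axis, y axis in percent of regions per 0.1) for each LPS library against each untreated library (left) and for replicate 2 against replicate 1 (right). The LPS curves lean to narrower peaks, with medians from -0.114 to -0.0923, and the replicate curves are centred near 0.

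Both LPS widths lay above both untreated widths in 4215 regions (10.5%) and below them in 14857 (36.9%). After each library was centred on its median log2 width, which moves the median of all regions from -0.118 to 0.02, the counts were 10616 (26.4%) and 7319 (18.2%), so the split turns with the scaling. In WT, which had no part in this choice, 63.1% of the regions that were wider in both KO LPS libraries before centring and called in all 8 libraries were wider too, against 33.5% of all 36009 regions called in all 8. For those narrower in KO, 77.7% were narrower in WT, against 66.4% of those 36009. A test of the difference between the 2 genotypes' width responses found 0 of 36009 regions past the threshold (limma, 0% called, smallest adjusted p = 0.085), with 1113 and 1118 regions at an unadjusted p under 0.05 in either direction.

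The following width values were chosen after they were seen, as the regions of the largest change whose LPS and untreated libraries did not overlap with or without centring. Near Tnfrsf11a, which encodes the receptor RANK (chromosome 1, 105864067 to 105865743), widths were 196 and 207 bases in KO untreated and 1433 and 903 in KO LPS, a log2 difference of 2.50 ± 0.27 (SE, limma adjusted p = 0.263). The WT libraries gave 0, 347, 1419 and 1504. A region 0.614 kb from Ccl4 (chromosome 11, 83665297 to 83666258) had 223 and 187 bases untreated and 792 and 962 with LPS in KO, and WT gave 183, 0, 776 and 789. It lies next to the region inside Ccl4 that was lost in both genotypes. At Syk, a kinase of immune receptors (chromosome 13, 52596697 to 52597554), KO widths were 822 and 841 untreated and 194 and 173 with LPS, a log2 difference of -2.18 ± 0.16 (SE, limma adjusted p = 0.263). WT showed 806 and 778 untreated, 164 in LPS library 1 and no peak in library 2. At Cdca8, a mitotic protein, KO widths were 1934 and 1955 untreated and 244 and 557 with LPS, while WT LPS library 2 kept a width of 1899 bases.

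Regions at the LPS genes with no member showed smaller differences, in both directions, and only some of them are given here. At the promoter of Ptgs2, the inducible cyclooxygenase (chromosome 1, 150099537 to 150100373), KO widths were 657 and 558 untreated and 786 and 804 with LPS (log2 difference 0.39 ± 0.12, SE, limma adjusted p = 0.377). WT gave 726, 657, 731 and 772 in the same order. The Il6 promoter region (chromosome 5, 30012771 to 30013492) had 529 and 557 bases untreated and 570 and 549 with LPS in KO, and 648, 556, 721 and 704 in WT. A region 64.4 kb from Il6 was narrower with LPS in KO (413 and 398 untreated, 335 and 362 with LPS). The same region was wider with LPS in WT (342 and 363, then 584 and 540). At the start of Cxcl10 the KO values were 386 and 711 untreated and 505 and 441 with LPS, which overlap, and WT gave 515, 653, 1043 and 785. In a region 25.8 kb from Il1b, 465 and 438 bases stood against 584 and 574 with LPS in KO, and 447 and 387 against 582 and 585 in WT. A region 18.8 kb from Ccl2, a monocyte-attracting chemokine, had 334 and 284 untreated and 463 and 535 with LPS in KO, and 191, 262, 532 and 569 in WT. Another, 20.1 kb from Ccl2, was narrower with LPS, with 331 and 329 untreated and 264 and 267 with LPS in KO, and 261, 328, 214 and 173 in WT. None of these passed the limma threshold, nor did the differences between genotypes.

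At Nfat5 itself, 4 of the 7 assigned regions were called in all 8 libraries. The other 3 were called in some KO libraries and in no WT library, among them one inside the gene with 192, 236, 0 and 203 bases in KO untreated and KO LPS. The region over the start of the gene (chromosome 8, 107292751 to 107293816) had 963 and 897 bases in KO untreated and 454 and 551 in KO LPS, a log2 difference of -0.89 ± 0.14 (SE, limma adjusted p = 0.263). WT gave 1066 and 795 untreated and 486 and 746 with LPS, so the groups did not overlap in either genotype. Since the deleted part is not given, these peaks do not check the knockout.

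The width differences of listed genes were set beside the median of all regions. After centring, the median log2 difference was 0.0814 over 151 regions of early LPS response genes and 0.109 over 75 of late ones, against 0.02 over all 40227. It was 0.0947 over 66 regions of NF-kB subunits and inhibitors and 0.181 over 35 regions of the LPS genes linked to NFAT5. AP-1 and ATF genes (64 regions, -0.0399), alternative activation genes (59, -0.0483) and osmotic stress genes (50, -0.0512) had lower medians than all regions. Housekeeping genes (38 regions, 0.081) stood as high as the early list, so such a median is not particular to response genes. As deposited, without centring, the medians of the early, late and NF-kB lists were -0.0563, -0.029 and -0.0429, and that of the NFAT5 list 0.0434.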

How the data were processed

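ATAC-seq peak lists of 4 KO and 4 WT libraries were used, 1 per library, each giving chromosome, start and end on GRCm38 (mm10) with no score. Per the submitters' processing notes, the authors used MACS2 2.1.1, Picard, Bowtie2 2.3.0 and bcl2fastq 2.17.1.14. Their roles, the calling threshold, duplicate removal and any cut-site shift remain not given in the sources used here. They set which weak peaks a deposited list holds, and so how many regions count as gained or lost.

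Peaks overlapping by at least 1 base were merged, and starts count from 1. Each region took the nearest protein-coding gene (of 21887) up to 100 kb away (GRCm38.p6 table). Transcript starts came from the RefSeq promoter table, which lacks some genes, and promoters on chromosome 18 are not analysed here. Gene lists (25, 459 entries, 3 unmatched) covered early and late LPS response, interferon response, TLR4 signalling, NF-kB, MAP kinases, AP-1, mRNA decay, NFAT5-linked genes, osmotic stress, MHC class II, alternative activation, macrophage identity, cholesterol, chemokine receptors, cell cycle, glycolysis, housekeeping and markers for 7 further cell types. The members and lists were chosen with earlier results of these data known. Named regions were the 12 widest per direction by the narrower peak, 1 per gene, at most 4 genes of each list in each direction, the 8 genes with most members, and 14 set genes. The printed promoters, genes named beyond these and width regions were chosen after their values were seen. Log2 widths were tested with limma 3.58.1 in R 4.3.3 (trend and robust), checked on simulated data. Alternatives changed the overlap, consensus, list length, gene assignment, scaling and libraries used.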

Additional observations from a re-analysis of the deposited data

Results flagged for a closer look

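A small number of regions had opposite calls in the 2 genotypes, with both libraries of each group taking part. Gained with LPS in KO and lost in WT were 21 regions, and lost in KO and gained in WT were 27. They were noted because every library of one genotype moved one way and every library of the other the opposite way, and the difference was not tested. The widest of the first kind lay inside Stab2, a scavenger receptor (chromosome 10, 86948954 to 86949651). Its peaks spanned 452 and 545 bases in KO LPS and 573 and 440 in WT untreated, and the other 4 libraries called none. Inside Cytip, a regulator of cell adhesion (chromosome 2, 58135377 to 58135733), KO LPS gave 269 and 271 bases and WT untreated 355 and 352. Of the second kind, a region inside Cdk6, a cell cycle kinase (chromosome 5, 3341908 to 3342507), had 261 and 241 bases in KO untreated and 551 and 283 in WT LPS. A region inside Lepr, the leptin receptor (chromosome 4, 101769658 to 101770320), had 495 and 625 bases in KO untreated and 223 and 588 in WT LPS. The 2 sets are 0.94% of the KO gained and 0.761% of the KO lost regions. Over all 87260 regions, 5.06% were lost and 3.96% gained in WT, so such calls were rarer among KO members than among regions at large.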

How the results depend on the processing

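The lists hold no depth, so weak peaks near the calling threshold cannot be told from absent ones. Among the 5782 gained and lost regions, 5765 kept their call with a consensus of the KO lists alone and 5758 with peaks within 100 bases merged. Lists of equal length kept 4618, and 4449 stayed when a peak had to cover 50% of the region. Lists of their widest 27013 peaks kept 357. That setting gave 1574 gained and 1384 lost regions in all. Leaving out 1 KO library at a time gave 3326 to 6088 gained and 6178 to 9248 lost regions, as fewer libraries had to call, and a median log2 width difference of -0.124 to -0.104. With genes assigned up to 25 kb away, the gained counts of all 25 lists stayed within 1.5 times. With regions overlapping the gene body only, 15 of the 25 moved further, as fewer regions were assigned: the NF-kB list had 6 gained of 68 (8.82%), the NFAT5-linked list 5 of 25, the interferon list 3 of 74 (4.05%) and the osmotic stress list 0 of 48. Counts of wider and narrower regions were 0 under every alternative run with limma. Width deviations of same-numbered libraries correlated weakly (0.0544 in KO and 0.0537 in WT over 36009 regions), although X and Y peak counts split by replicate number, and no label states what the number marks. With the replicate block, limma called 0 regions wider and 0 narrower (931 and 3501 at an unadjusted p under 0.05) and 0 in the genotype difference, and the gained and lost counts were the same by construction.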

Other observations

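Sex chromosome peaks followed the replicate number, not the treatment. Replicate 1 libraries held 1710 and 1703 peaks on chromosome X in KO (untreated and LPS) and 1763 and 1759 in WT, and replicate 2 libraries 1601 and 1497 in KO and 1500 and 1502 in WT. On chromosome Y, replicate 1 libraries held 38 and 33 peaks in KO and 33 and 43 in WT, and replicate 2 libraries 96 and 78 in KO and 59 and 59 in WT. Of the members, 74 gained and 91 lost regions lay on X (2.84% and 3.49% of its 2605 regions), and 0 gained and 2 lost on Y.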
